A study of Mus musculus with 6 samples.

Results

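Mt2, which encodes metallothionein 2, and Gm45774, a non-coding gene annotated on the opposite DNA strand, were examined in RNA-seq count data from mouse pancreatic islets. They are 2 of the 15286 genes with a row in the count table, and both were read in all 6 libraries. The pair was chosen from the measured values themselves, because Gm45774 held a very high count and Mt2 a very low one, so the contrast between them is a description and was given no test. Islets came from 3 wild type (WT) and 3 P07Rik flox/flox male littermates on a C57Bl/6N background, aged 12 weeks and fasted overnight. The flox/flox mice are homozygous for an allele of the long non-coding RNA gene P07Rik. It has a floxed cassette, which carries a promoter-driven neomycin gene, in the first intron. The study describes the allele as a loss of function in which this cassette ends P07Rik transcription early. The sources used here name no Cre in these mice. Isolated islets of both genotypes recovered for 2 h in 3 mM glucose before lysis, and each library was made from 1 mouse. Mice WT2772, WT2777, KO2775 and KO2776 came from litter 1, and WT2931 and KO2938 from litter 2, where KO is the prefix that the labels give to flox/flox mice. The libraries were made as strand-specific total RNA libraries after ribosomal RNA removal. The deposited counts summed to 698588, 793596 and 690726 in WT2772, WT2777 and WT2931, and to 646141, 611181 and 800255 in KO2775, KO2776 and KO2938, or 2.04% to 2.67% of the roughly 30 M reads per library that the labels state.

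Metallothioneins are small, cysteine-rich proteins that bind zinc and copper ions and buffer their concentration in the cell. Transcription of Mt1 and Mt2 is raised by zinc through the sensor MTF1, which binds metal response elements in their promoters, and also by glucocorticoids and oxidative stress. Beta cells hold much zinc, which they load into insulin granules through the transporter ZnT8, encoded by Slc30a8. Antisense genes such as Gm45774 are annotated where a non-coding transcript runs across a coding gene on the other strand, and no function of Gm45774 is used here.

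In GRCm38 (mm10), Mt2 (ENSMUSG00000031762) lay on the plus strand at chr8:94172664-94173568 and had 588 bases of exon over its transcripts. Gm45774 (ENSMUSG00000110588) lay on the minus strand at chr8:94170748-94173412 as a single exon of 2665 bases. It covered exons 1 and 2 of the coding Mt2 transcript shown here entirely, 212 and 66 bases, and 77 of the 233 bases of exon 3. Over all Mt2 transcripts, 432 of the 588 exonic bases (73.5%) faced Gm45774, whereas these were 16.2% of the Gm45774 exon. Gm45774 continued for 1916 bases upstream of the annotated Mt2 start. Mt2 in turn ran 156 bases past the 5′ end of Gm45774. Mt1 (ENSMUSG00000031765), the nearest relative of Mt2, began 5513 bases after the end of Mt2 on the same strand, at chr8:94179082-94180327, and had no annotated exon opposite to it.

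**Figure D1:**
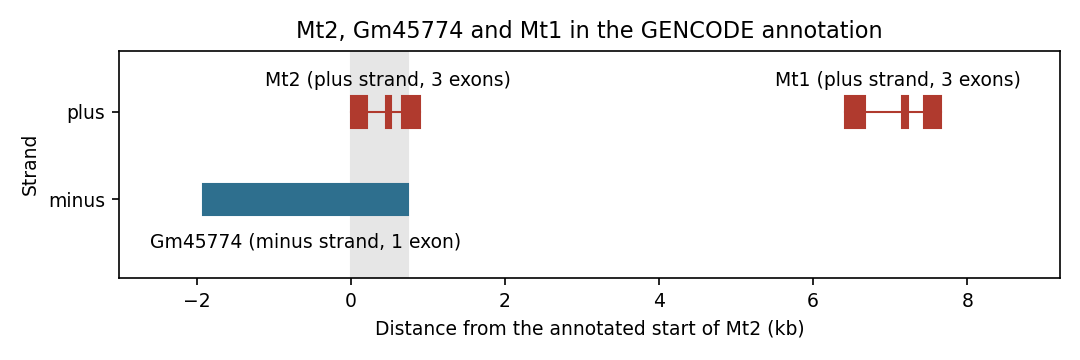
Annotated exons of the coding transcripts of Mt2 and Mt1 (red boxes, plus strand) and of Gm45774 (blue box, minus strand), drawn to scale by distance in kb from the annotated start of Mt2. The grey band marks the stretch in which Mt2 and Gm45774 face each other, and Mt1 stands clear of it.

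The coding sequences of Mt2 and Mt1 are shown because they hold the protein-coding part of the overlap and set how far reads of the 2 genes can be told apart. Both are given 5′ to 3′ on the plus strand, spliced from 3 exons of the GENCODE M21 annotation, Mt2 within chr8:94172848-94173427 and Mt1 within chr8:94179311-94180193. In Mt2 the capitals mark the 171 of 186 bases that face Gm45774, and in Mt1 they mark the 38 bases that differ from Mt2.
Mt2: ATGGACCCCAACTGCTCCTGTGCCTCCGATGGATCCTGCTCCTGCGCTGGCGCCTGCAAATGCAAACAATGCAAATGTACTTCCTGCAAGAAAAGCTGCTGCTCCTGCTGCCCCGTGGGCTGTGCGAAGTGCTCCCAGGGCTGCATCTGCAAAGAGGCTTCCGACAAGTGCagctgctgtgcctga
Mt1: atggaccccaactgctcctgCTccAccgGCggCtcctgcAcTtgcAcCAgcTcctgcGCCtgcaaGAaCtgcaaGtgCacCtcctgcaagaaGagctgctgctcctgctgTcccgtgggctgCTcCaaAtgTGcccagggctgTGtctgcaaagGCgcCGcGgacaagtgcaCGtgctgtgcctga
The coding sequences were identical at 148 of 186 bases (79.6%). The longest run shared by these Mt2 and Mt1 transcripts was 20 bases, against a read length of 125 bases.

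The Mt2 promoter is shown because it lies wholly inside the Gm45774 exon, so a read of minus-strand RNA from these bases would be counted on Gm45774. RefSeq (GRCm38.p6) places the Mt2 start at base 94172618, and the 250 bases before it, chr8:94172368-94172617, are given on the plus strand. Capitals mark metal response elements, searched as TGCACNC or TGCGCNC on both strands.
Mt2 promoter: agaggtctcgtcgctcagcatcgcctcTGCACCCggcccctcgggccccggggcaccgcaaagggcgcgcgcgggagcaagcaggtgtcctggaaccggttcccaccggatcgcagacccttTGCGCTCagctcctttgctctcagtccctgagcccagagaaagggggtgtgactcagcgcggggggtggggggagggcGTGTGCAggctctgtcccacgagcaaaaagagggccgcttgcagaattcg
These 3 matches began 223, 128 and 50 bases before the RefSeq start, and another began 4 bases after it. In windows of 300 bases around the start, from 250 bases before it to 50 after, Mt2 held 4 matches, Mt1 held 3, and Mt3 and Mt4 held 1 each. At least 1 match was found in 25.7% of 32851 RefSeq promoter windows and at least 4 in 0.517%. A match is a run of letters and was not measured as a site of MTF1 binding. The RefSeq promoters hold no entry for Gm45774.

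Gm45774 was counted 13353, 10139 and 10326 times in WT2772, WT2777 and WT2931. It was counted 11134, 6970 and 8236 times in KO2775, KO2776 and KO2938. WT2772 was the highest and KO2776 the lowest, and the genotypes overlapped through KO2775. In the same order, Mt2 was counted 5, 9 and 4 times in the WT libraries and 4, 1 and 2 times in the flox/flox libraries. No library held as many as 10 counts of Mt2. Summed over the 6 libraries, 60158 counts fell on Gm45774 and 25 on Mt2.

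**Figure D2:**
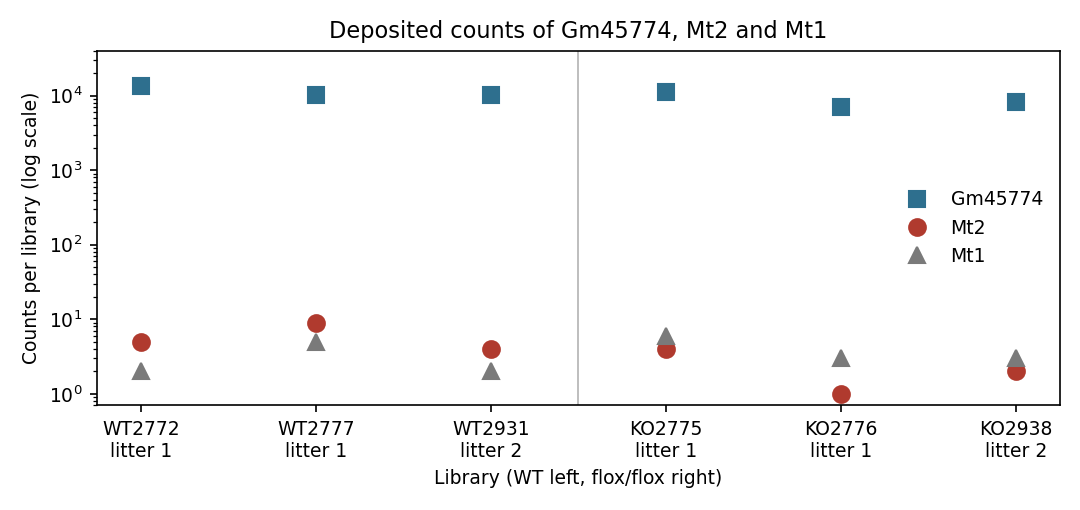
Deposited counts of Gm45774 (squares), Mt2 (circles) and Mt1 (triangles) in each of the 6 libraries, on a log axis with WT on the left and flox/flox on the right. Gm45774 lay between 6970 and 13353 counts in every library, and neither Mt2 nor Mt1 exceeded 9.

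By mean counts Gm45774 ranked 6 of all 15286 genes and 1 of the 1675 genes annotated as antisense. The next antisense gene, Pcsk2os2, which lies opposite the prohormone convertase gene Pcsk2, had a mean of 6531 counts against 10026 for Gm45774. Antisense genes together took 19.1% of all counts, and Gm45774 took 7.41% of theirs. Mt2 ranked 8254, with a mean of 4.17 counts. Per kb of exon, Gm45774 had a mean of 3762 counts, Mt2 7.09 and Mt1 2.81, a ratio per length of 531 between Gm45774 and Mt2. These ranks and levels are those of the strand to which the table assigns each read, an assignment that was not tested. Read with the strands exchanged, the mean of 10026 counts would be that of plus-strand RNA at this place, the strand of Mt2, and the mean of 4.17 that of minus-strand RNA.

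Mt2 made up 0.0374%, 0.0887% and 0.0387% of the counts of the pair in WT2772, WT2777 and WT2931. The corresponding shares in KO2775, KO2776 and KO2938 were 0.0359%, 0.0143% and 0.0243%. The widest exact Clopper-Pearson 95% interval was 0.0406% to 0.168% in WT2777, that of KO2776 was 0.000363% to 0.0799%, and the 6 intervals all overlapped. Pooled over libraries the share was 0.0415% (exact 95% interval 0.0269% to 0.0613%), or 1 count of Mt2 to 2406 of Gm45774. The share varied over libraries with a chi-square of 1.48 per degree of freedom (5 degrees), as a description. These intervals treat reads as independent draws and leave out spread between mice. PCR copies were not removed by molecular identifiers, so the intervals may be too narrow even for counting error.

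Within each library the log2 ratio of Gm45774 to Mt2, with 0.5 added to each count, averaged 11.27 ± 0.70 (SD, n = 6). It was 10.82 ± 0.66 in WT (n = 3) and 11.71 ± 0.46 in flox/flox libraries (n = 3). Every flox/flox library lay above every WT library, a difference of 0.89 with p = 0.1 in a two-sided exact permutation test, which is the smallest p that 3 against 3 libraries can give. Such an arrangement, with all flox/flox ratios higher, was found in 4.07% of the 1252 pairs of coding and opposite non-coding genes in the table. The difference was 1.12 with nothing added and 0.73 with 1 added to each count (p = 0.1 in each exact permutation test). With 5 added it was 0.20 (p = 0.7, exact permutation test), and without WT2777 it was 0.51. With 3 libraries per genotype the exact permutation test cannot pass 0.05, so this test could not decide whether the ratio differs between genotypes.

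The other annotated pairs give the setting for this ratio. The table held 1252 pairs in which an exon of a protein-coding gene faced an exon of a non-coding gene on the other strand. The non-coding gene had the higher mean count in 996 of them (79.6%), and the median log2 ratio of non-coding to coding was 2.70, with quartiles at 0.48 and 4.62. On the same scale Mt2 and Gm45774 stood at 11.07 and ranked 1, as the way the pair was chosen makes likely. Read with the strands exchanged, 99.96% of the counts of the pair would be reads of the strand of Mt2. The higher count would come from the coding strand in the same 79.6% of pairs. The exons of a pair overlap only in part, so the ratios that a recount of each gene would give are not known. The pair ranked next was Gm26541 opposite Mob3a, at 8.99, and then Gm17275 opposite the histone gene H3f3a, at 8.72. In these pairs, as in that of Mt2, the coding gene had a mean under 5 counts.

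**Figure D3:**
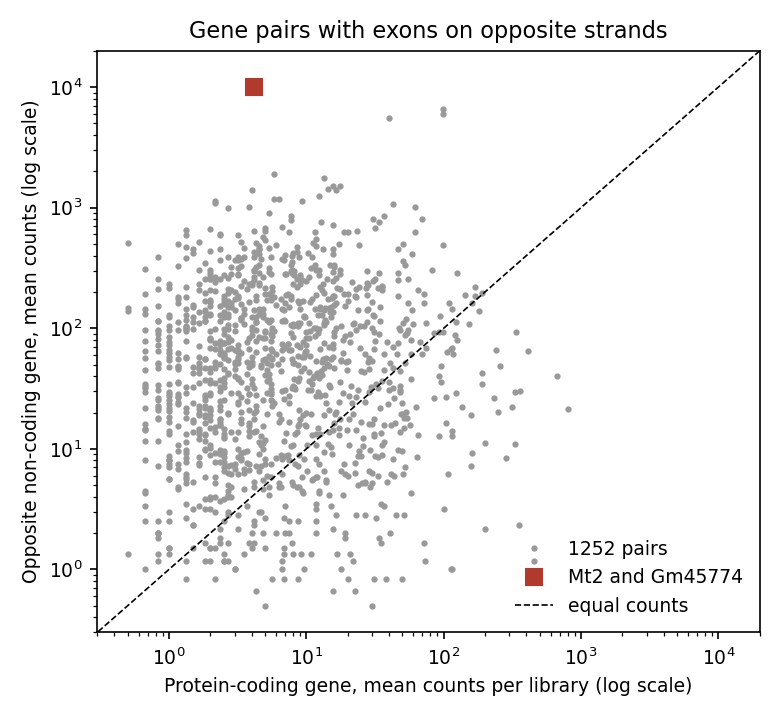
Mean counts per library of the protein-coding gene (x axis) and of the non-coding gene facing it (y axis) for 1252 pairs, both axes on a log scale. The dashed line marks equal counts, 996 pairs lie above it, and Mt2 with Gm45774 (square) lies farthest above it.

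In 20 pairs the non-coding gene had a mean of at least 1000 counts, and the coding gene then held between 0.0415% (Mt2) and 5.72% (Pcbp2) of the pair's counts, with a median of 0.79%. The transcription factor gene Jund held 0.711% against Gm11175, and its relative Jun 0.755% against Junos. Pcsk2, a processing enzyme of islet hormones, held 1.5% against Pcsk2os2 and 1.62% against Pcsk2os1. Txnip, a glucose-responsive gene, held 0.531% against Gm15441, and Resp18, a secretory granule gene, 0.304% against Gm28902. These 20 pairs were selected by their non-coding counts, which by itself favours low shares of the coding gene. With the strands exchanged, the counts on each non-coding gene, 94.3% to 99.96% of the pair's counts, would be reads of the coding strand. They would not be the counts of the coding gene, because the exons of a pair overlap only in part. The overlap was 40 bases for Resp18 and 99 for Pcsk2 with Pcsk2os2, and no recount was made.

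The table gives 1 count per gene, so it does not show how many Gm45774 counts lay within the bases that face Mt2. The libraries are labelled strand-specific, and the counting was described as run with default settings apart from the mapping quality, a default under which a read is counted for a gene on the strand it matches. Whether that setting matched the orientation of the libraries was not tested, since no reads were analysed here. Reads of Gm45774 RNA and reads of Mt2 RNA placed on the opposite strand cannot be told apart in the table. For a gene with no annotated gene opposite to it, such as Mt1, reads placed on the opposite strand would have been counted on no gene.

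Levels of islet hormone genes, which mark the labelled tissue, were low beside Gm45774. The insulin gene Ins2 had between 96 and 205 counts per library, or 0.012% to 0.0258% of all counts, and 115 counts per kb of exon against 3762 for Gm45774. Ins1 had a mean of 61.8 counts, Iapp, which encodes amylin, 57.7, and the glucagon gene Gcg 53.0. All 10 beta-cell markers were counted, with a summed mean of 338 counts per library led by Ins2, and none has an annotated gene opposite to it in the table. For these genes, as for Mt1, reads placed on the opposite strand would have been counted on no gene, and the part of the strand setting in their low counts was not tested. Markers of acinar cells summed to a mean of 44.8 counts (7 of 12 in the table, led by Cel), and of immune cells to 144 (3 of 7, led by the receptor gene Csf1r). Endothelial markers summed to 15.8 counts (5 of 6, led by Plvap), stromal markers to 7.33 (3 of 7, led by Acta2), alpha-cell markers to 65.5 (3 of 6), and delta- and PP-cell markers to 21.8 (2 of 3, led by Ppy). Of the immune counts 135 were those of Csf1r, which faces Hmgxb3 with a mean of 2.83 counts, and the acinar marker Cela2a, at 2.67, faces Casp9 at 1461. With the strands exchanged, the reads counted on Hmgxb3 and Casp9 would come from the strands of Csf1r and Cela2a. No recount was made. None of these lists had a member that passed the genotype test. In bulk islets, fewer cells of a type and less RNA per cell cannot be told apart.

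Mt1 and Mt3 also had few counts. Mt1 was counted 2, 5 and 2 times in the WT libraries and 6, 3 and 3 times in the flox/flox libraries. Mt3, a form best known from brain, was counted 0, 0 and 1 times in WT and 2, 0 and 1 times in flox/flox libraries. Counts of Mt4 were not analysed here. Among the other genes of this stretch of chromosome 8, Bbs2, a component of the ciliary BBSome, had 24, 19 and 21 in WT and 17, 18 and 6 in flox/flox libraries. Herpud1 had a mean of 7.50 counts, Nudt21 6, Ogfod1 3.83, Nup93 2.83 and Slc12a3 0.833. None of these neighbours had an annotated exon opposite to it among the genes of the table, so Mt2 was the only one of the 10 locus genes counted with such a partner.

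Gm45774 was compared between genotypes in an edgeR quasi-likelihood fit of 5478 genes. Normalised by the trimmed mean of M values (TMM), its level was 18321, 13160 and 13960 CPM, counts scaled to a common library total, in WT2772, WT2777 and WT2931. It was 16482, 12275 and 14393 CPM in KO2775, KO2776 and KO2938. The groups overlapped, with means of 15147 ± 2778 in WT and 14384 ± 2104 in flox/flox mice (SD, n = 3 each). The log2 fold change of flox/flox over WT was −0.07 (SE 0.19, 95% interval −0.49 to 0.34, edgeR adjusted p = 1.00), against a median of −0.01 over all genes tested. The interval spans a fold of 0.71 to 1.27. With litter as a block the value was −0.07. It was 0.09 without WT2772 and 0.04 without KO2776, so its sign depended on which library was left out.

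Across all genes, 0 of 5478 (0%) passed an adjusted p of 0.05 for genotype in edgeR, and 101 (1.84%) had an unadjusted p under 0.05. DESeq2 and limma-voom also called 0, with 35 and 91 genes at an unadjusted p under 0.05. With litter as a block edgeR called 3 genes, Gm20633, Gm18194 and Gm26526, which are named after their values were seen. Gm45774 was not among them.

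**Figure D4:**
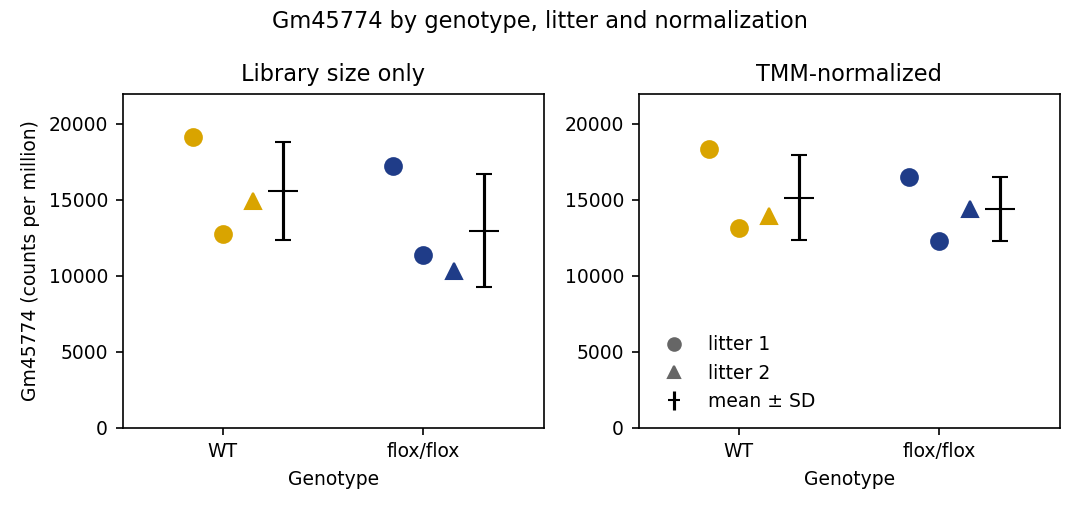
Gm45774 in CPM by genotype, scaled by library size alone (left) or by TMM (right), with litter 1 as circles, litter 2 as triangles and the mean ± SD of 3 libraries beside them. The genotypes overlap in both panels, and KO2938, the flox/flox triangle, moves most between them.

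The scaling bore on 1 library above all. AY036118, the most abundant gene of the table, took 14.5%, 20.0% and 13.6% of counts in the WT libraries and 14.5%, 22.1% and 41.0% in KO2775, KO2776 and KO2938. Gm45774 took 1.91%, 1.28% and 1.49% of all counts in WT and 1.72%, 1.14% and 1.03% in flox/flox libraries. With AY036118 left out of the totals the shares were 2.23%, 1.6% and 1.73% in WT and 2.02%, 1.46% and 1.75% in flox/flox libraries. KO2938 was the lowest library by the first measure and the third highest by the second. Scaled by library size alone the log2 fold change of Gm45774 was −0.28, while the median over all genes moved to −0.23.

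Mt2 did not pass the filter on low counts and was fitted only together with all 15286 genes. Its level was 6.86, 11.7 and 5.41 TMM CPM in WT2772, WT2777 and WT2931. It was 5.92, 1.76 and 3.50 in KO2775, KO2776 and KO2938. KO2775 lay within the WT range and the other flox/flox libraries below it. Means were 7.98 ± 3.28 in WT and 3.73 ± 2.09 in flox/flox mice (SD, n = 3 each). The log2 fold change was −0.99 (SE 0.68, 95% interval −2.37 to 0.40, edgeR adjusted p = 0.997), an interval that spans a fold of 0.19 to 1.32. Over left-out libraries the value ran from −1.548 to −0.665. At 1 to 9 counts per library no difference of Mt2 between genotypes was detectable at this depth.

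Litter was the other label that differed between mice. In edgeR, with genotype in the design, 620 genes (11.3%) passed an adjusted p of 0.05 between litters, and 1379 (25.2%) had an unadjusted p under 0.05. The number called at an adjusted p of 0.05 was 187 with DESeq2, 265 in edgeR scaled by library size alone and 233 in edgeR without WT2931. Gm45774 was not among the 620 genes: its log2 fold change of litter 2 over litter 1 was −0.09 (SE 0.16, 95% interval −0.41 to 0.24, edgeR adjusted p = 0.788). This value reversed without WT2772 (0.036), WT2931 (0.007) or KO2775 (0.001). The litter 2 libraries, at 13960 and 14393 TMM CPM, lay within the range of the 4 litter 1 libraries. Mt2 had a litter value of −0.53 (SE 0.73, edgeR adjusted p = 0.840), which ran from −0.75 to −0.17 over left-out libraries. The genotype value of Gm45774 differed between litters by 0.17 on the log2 scale in an edgeR interaction fit. Litter 2 held 1 library of each genotype, so the value there has no spread of its own. With 1 litter against 1, the 620 calls carry no measure of spread between litters.

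The pathways around the metallothioneins were counted over 8 lists with 94 genes. Of these, 69 had a row in the table, 22 passed the filter on low counts, and 48 had a mean under 10 counts. No member of any of the 8 lists passed the genotype test, at an adjusted or an unadjusted p of 0.05. Of the 22 members with an annotated opposite gene in the table, 17 (77.3%) had fewer counts than the genes facing them, which were coding in some cases and non-coding in others. Over all 3365 protein-coding genes of the table with an opposite gene of either kind, the share was 64.6%, and the difference was not tested. As for Mt2, reads of these 17 genes placed on the opposite strand cannot be told apart from reads of the gene facing them.

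Among metal-responsive genes, Mtf1, the zinc sensor itself, was counted most on its own strand, with 154, 145 and 182 in WT and 124, 116 and 114 in flox/flox libraries. Its edgeR log2 fold change was −0.14 (SE 0.16, unadjusted p = 0.406). Ftl1, which encodes ferritin light chain, had a mean of 4.17 counts, as few as Mt2, against 3019 on Gm10252 opposite to it. Slc30a1, the zinc exporter of the cell surface and a target of MTF1, had 3.17 against 184 on 1700034H15Rik. With the strands exchanged, the 41 counts on 1110065P20Rik opposite to Mtf1 would come from the strand of Mtf1, so Mtf1 might not lead. Mtf1 was the only one of the 10 counted members of this list that was tested.

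Of the zinc exporters and vesicle transporters, 7 of 10 were counted and 1 was tested. Slc30a7, a transporter of the Golgi, had a mean of 24.8 counts, against 298 on Gm43106 and Gm6649 opposite to it, and a genotype log2 value of 0.24. Slc30a8, the beta-cell granule transporter, had a mean of 8.83. Slc30a1, the next, is given above, and Slc30a4, at 1.67, faced 46.8 on 4930417H01Rik. Of the 14 zinc importers, 8 were counted and 3 tested, with a median genotype value of −0.26. They were Slc39a13 at a mean of 23.3 counts, Slc39a5 at 13.7 and Slc39a1 at 8.83. Slc39a13 faced 40.3 on Psmc3, and Slc39a9, at 2.0, faced 51.3 on Erh. With the strands exchanged, the counts on each facing gene would come from the strand of the gene it faces. Slc30a8, Slc39a5 and Slc39a1 have no opposite gene in the table. Their reads placed on the opposite strand would have been counted on no gene of it, so the order within each list could differ.

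For copper handling, Commd1, a regulator of copper export, had a mean of 392 counts against 39.8 on Zrsr1 opposite to it. Ceruloplasmin (Cp) had 38.2 against 3.33 on Hps3, and the transporter Slc31a2 had 32.8. Sco2, at 27.8, faced 100 on Ncaph2. The median genotype value of the 6 tested members of this list was −0.05. For the oxidative stress response, with 3 tested members, the median was also −0.05, and its leading genes were Sqstm1 at a mean of 37.3, Nfe2l2, which encodes the regulator NRF2, at 26.0 and G6pdx at 20.2. Keap1, the inhibitor of NRF2, had 2.83 counts against 282 on Gm16754, and Gclm 3.33 against 117 on Gm17494. Sqstm1 faced 172 on Mrnip and G6pdx faced 24.7 on Ikbkg, so with the strands exchanged Sqstm1 might not lead. For the glucocorticoid response the median of 4 tested members was −0.26, and the leading genes were Cebpd at 26.3, the phosphatase gene Dusp1 at 20.5 and the receptor gene Nr3c1 at 11.3. Cebpd faced 22.2 counts on Spidr, and Dusp1 faced 1.0 on Ergic1. For hypoxia the median of 2 tested members was −0.17, led by Vegfa at 15.8 counts, Ankrd37 at 14.5 and Slc2a1 at 5.50. Opposite genes held 730 counts at Ndrg1, 595 at Bnip3, 78.3 at Slc2a1 and 39.5 at Ankrd37. With the strands exchanged, the counts on each facing gene would come from the strand of the gene it faces. Slc31a2, Nfe2l2, Nr3c1 and Vegfa have no opposite gene in the table. Their reads placed on the opposite strand would have been counted on no gene of it, so the leading genes could differ.

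By litter, Nfe2l2 passed the edgeR test and fell in litter 2 by 1.10 on the log2 scale (edgeR adjusted p = 0.0247), with 9 counts in WT2931 and 19 in KO2938 against 22 to 44 in litter 1. Of the marker genes, Gcg fell by 1.13 (edgeR adjusted p = 0.00267) and Muc1, a ductal marker, rose by 1.15 (edgeR adjusted p = 0.0351). Their part in any value of the pair was not tested.

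The genes whose level followed that of Gm45774 most closely over the 6 libraries are given as a description. Among 1797 genes with a mean of at least 50 counts, the highest Pearson correlation of log2 CPM was 0.963 for Prune2, followed by Gm44672 (0.957), G630030J09Rik (0.942), Mapk8ip3 (0.929) and Gm43118 (0.919). Prune2 stood at 158 and 155 CPM in WT2772 and KO2775 and between 70.1 and 99.6 in the others, and WT2772 and KO2775 were also the highest libraries for Gm45774. Gm44672, G630030J09Rik and Gm43118 are themselves annotated as antisense genes. For Mt2 the closest were Gm26609 (0.974), Vps4a (0.932), D330041H03Rik (0.930), Inpp5f (0.918) and Appl2 (0.916), but the Mt2 side of each rests on 1 to 9 counts. The 6 libraries share litters and scaling, and these values are the highest among many genes.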

How the data were processed

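The deposited table held whole-number read counts per gene, which the authors made from 125-base single-end reads of 6 libraries by discarding rRNA reads, mapping the rest to mm10 with HISAT2 2.1.0 and counting with HTSeq on Ensembl genes. Every gene in it had at least 3 counts over the libraries. The authors' own table of fold changes and p-values was not used, and all 6 sample columns were. Gene symbols, strands and exons came from GENCODE M21 on GRCm38, a later annotation of the same build, which matched 15258 of 15286 identifiers. The pair, the gene lists and the tests were chosen with earlier results of these data known.

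Counts were tested with edgeR 4.0.16 (TMM, quasi-likelihood, default filter with a minimum count of 10, Benjamini-Hochberg adjustment, R 4.3.3), with genotype alone or with litter, after a check on simulated data. DESeq2 1.42.0 and limma-voom 3.58.1 were alternatives. Mt2 failed the filter, so its fits used all genes, a choice made after seeing the data. Pairs were coding and non-coding genes with exons overlapping on opposite strands. Log2 ratios used a pseudocount of 0.5 and scipy 1.17.1 gave exact tests and intervals. Named genes were the pair, the locus, the 3 most counted members of each list and any member past the test. The 5 genes most correlated with each of the pair were also named, and some list members for the counts opposite to them. Groups differed in mice, so p-values rest on spread between mice, at 611181 to 800255 counts per library. In the fits this spread is partly shared across genes. The litter fits had 52.1 degrees of freedom for Gm45774 and infinite ones for Mt2, so their p-values rest mostly on shared spread. With 1 litter on each side, no p-value measures spread between litters. Deviations from genotype means correlated at 0.14 to 0.46 within litters and −0.35 to −0.25 between them, and the labels give the litters. The targeted gene and some list members are not reported here.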

Additional observations from a re-analysis of the deposited data

How the results depend on the processing

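The number called by genotype was 0, and scaling by library size alone gave 2 (Gm20633 and Gm18194) and a replicate block on litter or on 3 pairs of mice gave 3 each, and leaving out each library gave 0 to 1 (Gm27176, without KO2938). The number of genes called by litter, 620, was 265 with library size alone, 187 with DESeq2, and 233 to 540 when each library was left out (233 without WT2931), and how many genes these share was not counted. Where 1 library was left in litter 2, it was assumed to vary like the others. The Gm45774 genotype value ran from −0.18 to 0.091 over left-out libraries and reversed without WT2772 (0.091) and KO2776 (0.036). Its edgeR, DESeq2 or limma adjusted p lay between 0.933 and 1.00 over all 14 alternatives. With the block on litter it was −0.07, and on pairs −0.07, and the block changed no other call. Its litter value was −0.29 with library size alone, ran from −0.18 to 0.036 over left-out libraries and reversed without WT2772 (0.036), WT2931 (0.007) and KO2775 (0.001). Mt2 kept its sign and missed the threshold in all its alternatives, from −1.55 to −0.67 by genotype and −0.75 to −0.17 by litter. The mean log2 ratio of the pair was 11.09 to 11.51 over left-out libraries and 10.12 with a pseudocount of 5. The genotype difference of the ratio was 0.80 within litters under the block (p = 0.167, exact permutation, the smallest possible) and 0.51 to 1.11 over left-out libraries. The causes were not tested. At 1 to 9 counts of Mt2, depth limits every value of Mt2 and of the ratio.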
